A study of Mus musculus with 6 samples.

Results

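The genes examined here were 10 markers and regulators of the lung epithelial lineage, picked by name as the rows Nkx2-1, Foxa1, Foxa2, Hnf4a, Hopx, Sftpb, Sftpc, Sftpd, Scgb1a1 and Lyz2 among the 24214 RefSeq features counted in each sample, and all 10 were found. They were measured by total RNA sequencing on the SOLiD platform in 393P cells, an epithelial mouse lung adenocarcinoma line of strain C57BL/6 by its label. In 3 samples the cells carried an empty vector (393P_vector), and in 3 samples they carried a vector expressing ZEB1 (393P_ZEB1), a zinc finger repressor that drives epithelial-to-mesenchymal transition. All 6 samples were stable transfectants selected with a drug and grown in RPMI-1640 with serum, so both groups share the line and the medium. The methods do not state which drug each group received. The samples of a group are numbered, but nothing states that they came from separate transfections or cultures, and p-values then measure only the spread between these samples, which may be technical. The comparison asks which lineage genes differ in level when ZEB1 is expressed.

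Total counts ranged from 54442450 to 79158012 per sample. At this depth a floor of 3 counts corresponded to 0.0379 to 0.0551 CPM, the unit in which counts are scaled to library size. Zeb1 itself lay between 21.2 and 22.0 CPM in the 393P_vector samples and between 48.9 and 54.9 CPM in the 393P_ZEB1 samples, a log2 fold change of 1.26 (SE 0.10, n = 3 per group, edgeR adjusted p = 6.06e-05), which runs the way the labels say. 393P_vector replicate 3 stood apart from the other samples of its group. Replicates 1 and 2 of 393P_vector were at least 2-fold apart in 0.90% of the tested genes, but replicate 3 was so in 6.89% of them from replicate 1 and in 7.75% from replicate 2.

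The lung epithelium is patterned by a small set of transcription factors. NKX2-1 is the homeodomain protein that specifies lung epithelium and drives surfactant genes, and the forkhead proteins FOXA1 and FOXA2 open chromatin at endodermal enhancers and act beside it. HNF4A is a nuclear receptor of liver, gut and kidney epithelium that is low in normal lung and is known from lung adenocarcinomas with a gut-like or gastric-like program. Of the differentiation genes, Sftpb, Sftpc and Sftpd encode surfactant proteins and Lyz2 encodes lysozyme M, all made by alveolar type 2 cells, although Lyz2 is also abundant in macrophages. Hopx encodes a small homeodomain protein of alveolar type 1 cells, and Scgb1a1 encodes the secretoglobin of club cells.

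The 10 genes fell into abundantly counted genes and genes with almost no reads. Hnf4a, Foxa1 and Foxa2 had between 1344 and 18252 counts in every sample and passed the filter on low counts. The other 7 genes had between 0 and 5 counts in every sample and did not pass it. Hnf4a rose 9.05-fold in 393P_ZEB1, whereas neither Foxa1 nor Foxa2 passed the test. Thus 1 of the 3 tested genes was called higher, beside a background of 18.3% of all 13892 tested genes, and 0 were called lower, beside 19.3% (37.6% in either direction). With edgeR, DESeq2 and limma voom alike, 0 of the 3 were lower at an unadjusted p under 0.05.

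**Figure D1:**
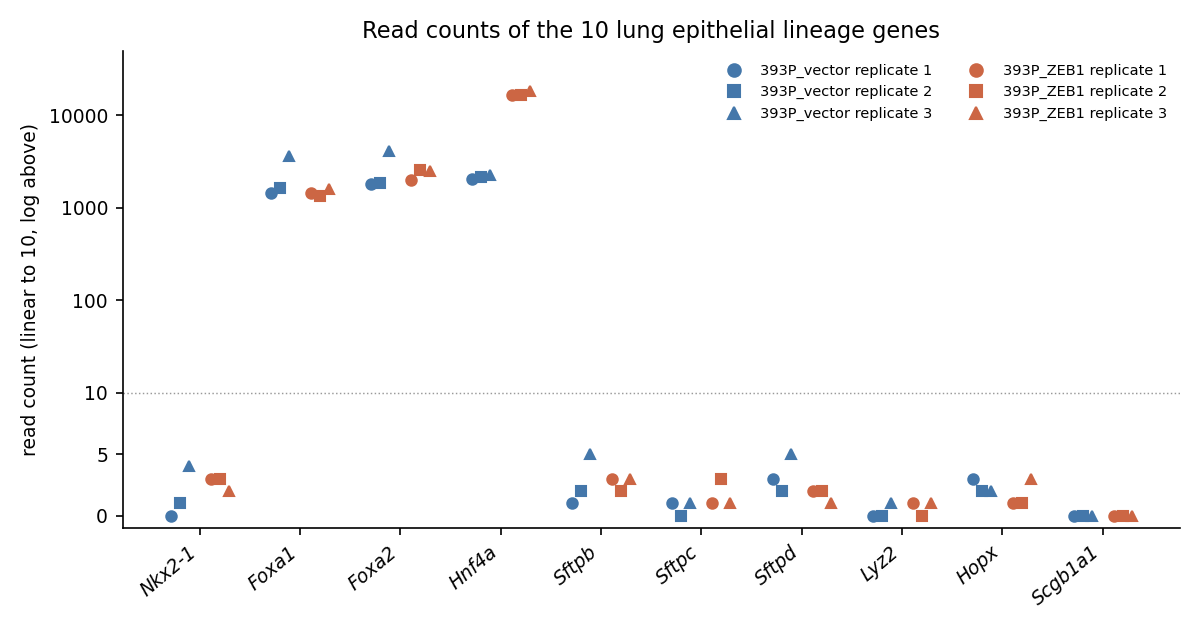
Read counts of the 10 genes (vertical axis, linear up to 10 counts and logarithmic above, dotted line at 10) in each of the 6 samples, 393P_vector in blue and 393P_ZEB1 in orange, with 1 symbol per replicate number. Foxa1, Foxa2 and Hnf4a have 1344 counts or more in every sample, and the other 7 genes lie at 5 counts or fewer.

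Hnf4a lies on the plus strand of chromosome 2 and was counted over chr2:163547188-163572907 (GRCm38), with 4348 bases of exon in 10 exons. Mouse annotation gives the gene more than 1 start. The counted interval begins at the first exon of a transcript that GENCODE M21 places at 163547188 to 163547419, and another transcript starts upstream at 163506808, outside the counted interval. A further transcript starts at 163546817, also before that interval, and its first exon ends at 163546942. Another starts within the interval, at 163550083. The sequences before both RefSeq starts (GRCm38.p6) are shown because Hnf4a is the member that changed and because ZEB1 is known to bind the E-box CAGGTG. Each covers the 250 bases before the start without those that GENCODE places in an exon of Hnf4a, and capitals mark the E-box, searched as CAGGTG and CACCTG. The upstream window is chr2:163506607-163506807 and the downstream window is chr2:163546943-163547154, both on the plus strand.
Hnf4a upstream start: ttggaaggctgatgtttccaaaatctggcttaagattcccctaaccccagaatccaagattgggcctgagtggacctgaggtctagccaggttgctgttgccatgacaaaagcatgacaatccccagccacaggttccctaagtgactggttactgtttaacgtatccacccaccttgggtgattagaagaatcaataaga
Hnf4a downstream start: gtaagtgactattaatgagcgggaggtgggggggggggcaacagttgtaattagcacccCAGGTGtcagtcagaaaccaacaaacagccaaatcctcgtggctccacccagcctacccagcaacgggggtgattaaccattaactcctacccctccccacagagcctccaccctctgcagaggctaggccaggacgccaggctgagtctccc

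The RefSeq starts used here, 163506857 upstream and 163547155 downstream, lie 40.298 kb apart and differ from the GENCODE starts given above. The E-box was found 1 time before the downstream RefSeq start, 153 bases from it, and not before the upstream start. It also lies within the spans of the GENCODE transcripts that start at 163506808 and 163546817. The E-box letters were then counted over all promoters. They occurred on either strand in 17.22% of the 32851 mouse promoter windows of 250 bases. Over the 10 genes, the promoter table held 11 windows for 7, and the E-box was also found before the starts of Nkx2-1, 205 bases away, and of Foxa1, 23 bases away. A forkhead motif, TGTTTAC or GTAAACA, lay 141 bases before the Foxa1 start and in 3.166% of all windows, and an NKX2 motif, CACTTG or CAAGTG, lay 129 bases before the Lyz2 start and in 11.61% of all windows. These matches describe letters in a window and were not tested for binding. Sftpc, Sftpd and Scgb1a1 were not searched here.

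Hnf4a counts were 2062, 2137 and 2238 in 393P_vector and 16475, 16395 and 18252 in 393P_ZEB1. Scaled to library size, these were 36.4, 36.3 and 26.9 CPM against 308, 295 and 299 CPM. The groups did not overlap, and the lowest 393P_ZEB1 sample was far above the highest 393P_vector sample. The mean was 33.2 ± 5.45 CPM in 393P_vector and 301 ± 6.57 CPM in 393P_ZEB1 (SD, n = 3 each). The log2 fold change was 3.18 (SE 0.15, 95% interval 2.84 to 3.52, edgeR quasi-likelihood adjusted p = 3.54e-06). The exact two-sided permutation test of log2 CPM gave p = 0.1, the smallest that 3 samples against 3 allow.

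Among all 13892 tested genes, Hnf4a was at rank 184 by log2 fold change, and 1.32% had a log2 fold change at least as high. The level per kb of exon moved from 7.64 ± 1.25 to 69.2 ± 1.51 CPM per kb (SD, n = 3 each). On that scale 69.3% of all counted features lay below Hnf4a in 393P_vector and 95.6% in 393P_ZEB1. In each of the 6 samples the number of exons with more than 10 reads was 9 of 10, in 393P_vector as in 393P_ZEB1. At uniform coverage the shortest exon of the counted transcript, of 88 bases, would carry 41.7 reads in the sample with the fewest and 369 in the sample with the most. Which exon held 10 reads or fewer, and whether it was the same in every sample, is not known from the values used. The choice of start site was therefore not tested.

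**Figure D2:**
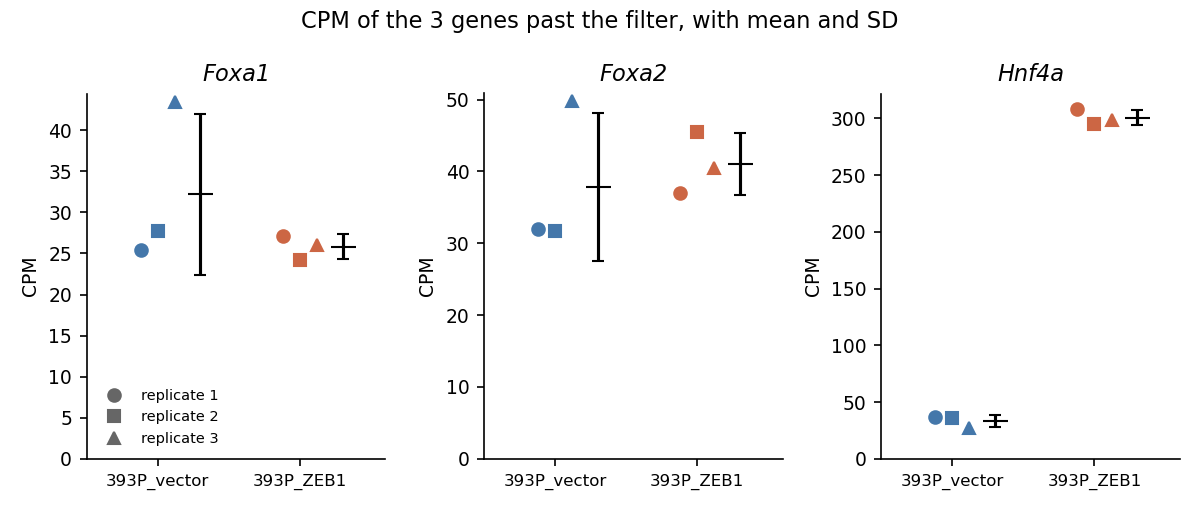
CPM (vertical axes, from 0) of Foxa1, Foxa2 and Hnf4a in each sample, with 1 symbol per replicate number, and the mean with SD (n = 3) in black. Hnf4a lies between 26.9 and 36.4 CPM in 393P_vector and between 295 and 308 CPM in 393P_ZEB1, whereas the groups overlap for Foxa1 and Foxa2, with 393P_vector replicate 3 highest for both.

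To see whether the whole locus moved, the genes around Hnf4a were compared. Distances between genes are taken between their lower coordinates and are not gaps between gene ends. Within 1 Mb there were 24 other tested genes, of which 3 rose and 7 fell, beside 18.3% and 19.3% of all tested genes. The nearest tested gene on the lower side, R3hdml at 54.9 kb, had a log2 fold change of 0.29 (SE 0.16, adjusted p = 0.195). On the upper side, Ttpal at 55.1 kb, which encodes a tocopherol transfer protein-like protein, had a log2 fold change of 0.25 (SE 0.14, adjusted p = 0.208). Neither neighbour passed the test. The values in the window ran from a log2 fold change of -3.99 for Slpi, a secreted protease inhibitor, to 4.74 for Wisp2, a secreted matricellular protein, both named after their values were seen. Wisp2 was the 1 other gene in the window with a log2 fold change over 1. The median over tested genes of chromosome 2 was -0.05, beside -0.02 over all tested genes.

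**Figure D3:**
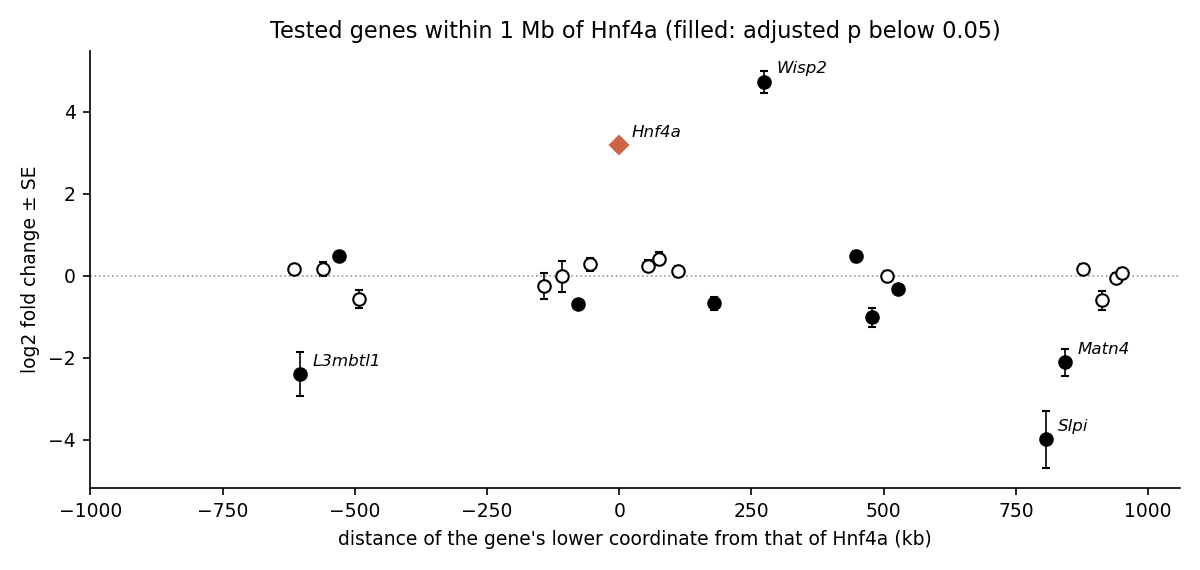
Log2 fold change with SE (vertical axis) of the tested genes within 1 Mb of Hnf4a by distance from it in kb (horizontal axis), filled where the edgeR adjusted p is below 0.05, with Hnf4a as an orange diamond. Hnf4a at 3.18 and Wisp2 at 4.74 are the points above 1, and the nearest genes on either side are at 0.29 and 0.25.

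Foxa1 lies on the minus strand at chr12:57540632-57546121 and has 3185 bases of exon. Its counts were 1437, 1635 and 3607 in 393P_vector and 1453, 1344 and 1592 in 393P_ZEB1, or 25.4, 27.8 and 43.4 CPM against 27.2, 24.2 and 26.1 CPM. The groups overlapped, and 393P_vector replicate 3 alone was high. The means were 32.2 ± 9.79 and 25.8 ± 1.5 CPM (SD, n = 3 each), with a log2 fold change of -0.32 (SE 0.21, 95% interval -0.80 to 0.16, edgeR adjusted p = 0.258). The exact permutation p was 0.4. Without 393P_vector replicate 3, which stood at 1.63 times the mean of the other 393P_vector samples, the log2 fold change was -0.04 (SE 0.10, adjusted p = 0.737).

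Foxa2, on the minus strand at chr2:148042878-148046969 with 2124 bases of exon, had 1807, 1869 and 4132 counts in 393P_vector and 1981, 2530 and 2470 counts in 393P_ZEB1. In CPM these were 31.9, 31.8 and 49.7 against 37.0, 45.5 and 40.5. 393P_vector replicate 3 was again the highest of the 6 samples, and the 3 samples with ZEB1 all lay above 393P_vector replicates 1 and 2. The means were 37.8 ± 10.3 and 41.0 ± 4.29 CPM (SD, n = 3 each), and the log2 fold change was 0.12 (SE 0.20, 95% interval -0.34 to 0.57, edgeR adjusted p = 0.674). The exact permutation p was 0.6. Without 393P_vector replicate 3 the log2 fold change of Foxa2 was 0.36 (SE 0.10, adjusted p = 0.0131), which was called higher, beside a background of 26.2% higher calls without that sample. With limma voom, which weights the samples, it was 0.38 (adjusted p = 0.00478), beside a background of 28.6%. By edgeR, Foxa2 was called without this sample and not with it.

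In normalized CPM, a ratio of 393P_vector replicate 3 to the mean of replicates 1 and 2 at least as high as that of Foxa1 was found for 10.6% of tested genes, and one at least that of Foxa2 for 12.3%. Hnf4a stood at 0.741 of the mean of the other 393P_vector samples in this replicate. Per kb of exon, Foxa1 had 10.1 ± 3.07 CPM in 393P_vector and 8.10 ± 0.471 in 393P_ZEB1, and Foxa2 had 17.8 ± 4.86 and 19.3 ± 2.02 (SD, n = 3 each). On this scale the order in 393P_ZEB1 was Hnf4a, Foxa2 and Foxa1, whose samples did not overlap. In 393P_vector Foxa2 came first in every sample and the samples of Foxa1 and Hnf4a overlapped.

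**Figure D4:**
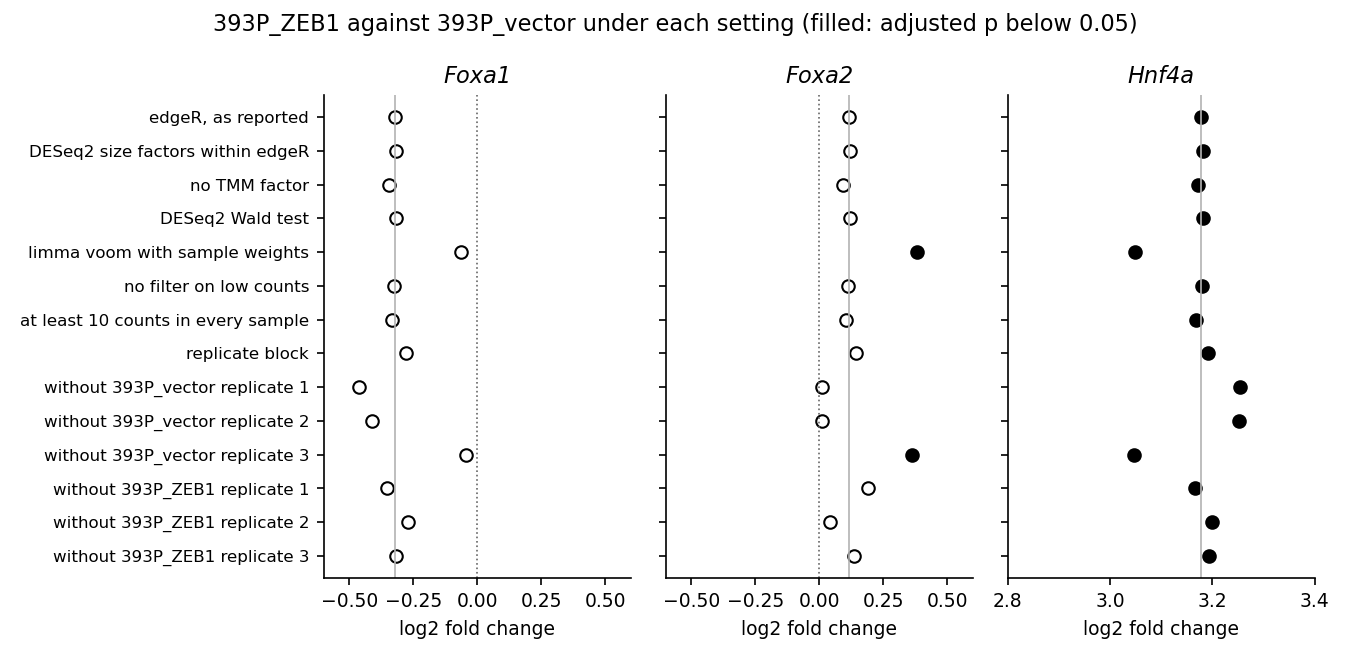
Log2 fold change of 393P_ZEB1 against 393P_vector (horizontal axes) for Foxa1, Foxa2 and Hnf4a with edgeR as reported and under 13 other settings (rows), filled where the adjusted p is below 0.05, the gray line marking the value as reported and the dotted line 0. The axis for Hnf4a runs from 2.8 to 3.4 and its points stay between 3.05 and 3.25, whereas Foxa2 is called with limma voom and without 393P_vector replicate 3.

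Nkx2-1, the factor that specifies the lung lineage (chr12:56531935-56536908, minus strand), had 0, 1 and 4 counts in 393P_vector and 3, 3 and 2 counts in 393P_ZEB1. The groups overlapped, and no sample had more than 4 reads. Pooled over the samples of a group, this was 0.0254 CPM in 393P_vector (exact Poisson 95% interval 0.00825 to 0.0593) and 0.0468 CPM in 393P_ZEB1 (0.0202 to 0.0923), where the intervals cover counting error only. A difference was not detectable at this depth.

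The surfactant genes were at the same low level. Sftpb (chr6:72303248-72314370, plus strand) had 1, 2 and 5 counts in 393P_vector and 3, 2 and 3 in 393P_ZEB1. Sftpc (chr14:70520942-70524081, minus strand) had 1, 0 and 1 counts in 393P_vector and 1, 3 and 1 in 393P_ZEB1. Sftpd (chr14:41172212-41185198, minus strand) had 3, 2 and 5 counts in 393P_vector and 2, 2 and 1 in 393P_ZEB1. For each of the 3 the groups overlapped or met, and the highest sample of any had 5 counts. Sftpa1, the other surfactant protein gene counted and a member of the alveolar type 2 list below, had 3 counts at most.

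Lyz2 (chr10:117277541-117282272, minus strand) had 0, 0 and 1 counts in 393P_vector and 1, 0 and 1 in 393P_ZEB1. Reads of Lyz2 can be shared with its near-identical neighbour Lyz1, which had 1 count at most. Hopx (chr5:77086986-77115123, minus strand) had 3, 2 and 2 counts in 393P_vector and 1, 1 and 3 in 393P_ZEB1, again overlapping. GENCODE M21 places an antisense gene over part of Nkx2-1 and of Hopx, and whether counting used the strand is not given in the sources used here. Scgb1a1 (chr19:9083642-9087956, minus strand) had 0 counts in all 6 samples, and 3 counts, the limit taken for a count of 0, correspond to 0.00816 CPM over the 6 samples together. The exact Poisson 95% interval reached 0.0188 CPM over the 393P_vector samples and 0.0216 CPM over the 393P_ZEB1 samples.

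Summed over these 7 genes, the counts were 8, 7 and 18 in 393P_vector and 11, 11 and 11 in 393P_ZEB1, which is 33 in either group. As summed CPM this was 0.119 to 0.217 in 393P_vector and 0.180 to 0.206 in 393P_ZEB1, so that the range of 393P_ZEB1 lay within that of 393P_vector. Each of the 7 had at most 5 counts in any sample, as did 29.7% of all features, and 6.86% of features, Scgb1a1 among them, had 0 counts throughout. When edgeR was run on every feature with a read, the 6 of these genes that had any gave adjusted p between 0.429 and 0.880, and 0 had an unadjusted p under 0.05. In that fit 10.7% of features were called higher. Since both groups lay near or under 3 counts per sample, no fold is given for any of the 7. In these bulk samples fewer cells expressing a gene and less RNA per cell cannot be told apart.

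The near absence of Nkx2-1 and the surfactant genes was set beside wider lists of lung cell type genes. Of 10 further alveolar type 2 genes, 7 were tested, 0 rose and 4 fell, with a median log2 fold change of -0.82. For this and the lists that follow, the same fit called 18.3% of all tested genes higher and 19.3% lower, with a median of -0.02. Muc1, an epithelial mucin, fell from 5.56 ± 1.69 to 0.789 ± 0.0965 CPM (log2 fold change -2.81, adjusted p = 0.000142), and Ctsh, a cathepsin that processes surfactant protein B, fell from 6.24 ± 0.448 to 1.33 ± 0.0466 CPM (-2.23, adjusted p = 2.69e-05). Abca3, the lipid transporter of lamellar bodies, was abundant and fell from 152 ± 31.2 to 86.1 ± 5.32 CPM (-0.82, adjusted p = 0.00568). Scd1, a fatty acid desaturase, was at 211 ± 20.2 and 233 ± 16.2 CPM and did not pass the test. Lamp3, a lysosomal membrane protein of type 2 cells, had 143 to 284 counts and was not called (adjusted p = 0.171). The type 2 genes were thus not low alike: Abca3, Scd1 and Lamp3 were counted in every sample, while Sftpa1 and Napsa had 3 counts at most.

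Of 10 alveolar type 1 genes beside Hopx, 9 were tested, 1 rose and 5 fell, with a median log2 fold change of -0.92. The 1 that rose was Emp2, named after its value was seen. It went from 118 ± 4.83 to 267 ± 12.6 CPM (log2 fold change 1.17, adjusted p = 5.58e-05). Pdpn, the podoplanin of type 1 cells, fell from 17.6 ± 2.67 to 0.155 ± 0.0603 CPM (log2 fold change -6.83, SE 0.28, adjusted p = 2.16e-06). Akap5, a kinase anchor, fell from 3.04 ± 0.111 to 0.587 ± 0.12 CPM (-2.37, adjusted p = 0.000102), and Gprc5a, an orphan receptor of lung epithelium, from 431 ± 8.30 to 228 ± 23.1 CPM (-0.92, adjusted p = 0.000432). Cav1, the caveolin, was at 414 ± 87.5 and 304 ± 21.1 CPM and was not called (adjusted p = 0.0592), but was without 393P_vector replicate 3 (adjusted p = 0.0205). Without that sample the type 1 list held 2 rises and 7 falls, in a fit that called 26.2% of all tested genes higher and 26.8% lower.

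Of 7 club cell genes beside Scgb1a1, 6 had at most 5 counts in every sample, Upk3a among them with 0 to 5, and the 1 tested, Aldh1a7, fell from 2.14 ± 0.160 to 1.28 ± 0.110 CPM (log2 fold change -0.74, adjusted p = 0.0145). Of 8 ciliated cell genes, 6 were tested and 2 fell. Foxj1, the factor that programs motile cilia, fell from 2.79 ± 0.165 to 0.186 ± 0.0877 CPM (-3.89, adjusted p = 7.35e-05), and Tppp3, a tubulin-binding protein, fell from 13.2 ± 4.87 to 0.35 ± 0.0651 CPM (-5.23, adjusted p = 2.62e-05). Of 5 basal cell genes, 4 were tested, 1 rose and 3 fell. The keratin genes Krt14 and Krt17 fell, at a log2 fold change of -4.38 (adjusted p = 4.03e-05) and -3.35 (adjusted p = 0.000733) against 393P_vector. Both were low, with means of 2.12 and 0.623 CPM in 393P_vector. In 393P_ZEB1 they had 4, 6 and 7 counts (Krt14) and 3, 4 and 3 counts (Krt17). These lie near the floor of 3 counts, so the size of both folds is uncertain. Ngfr, a neurotrophin receptor, rose by 1.07 (adjusted p = 0.0232).

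**Figure D5:**
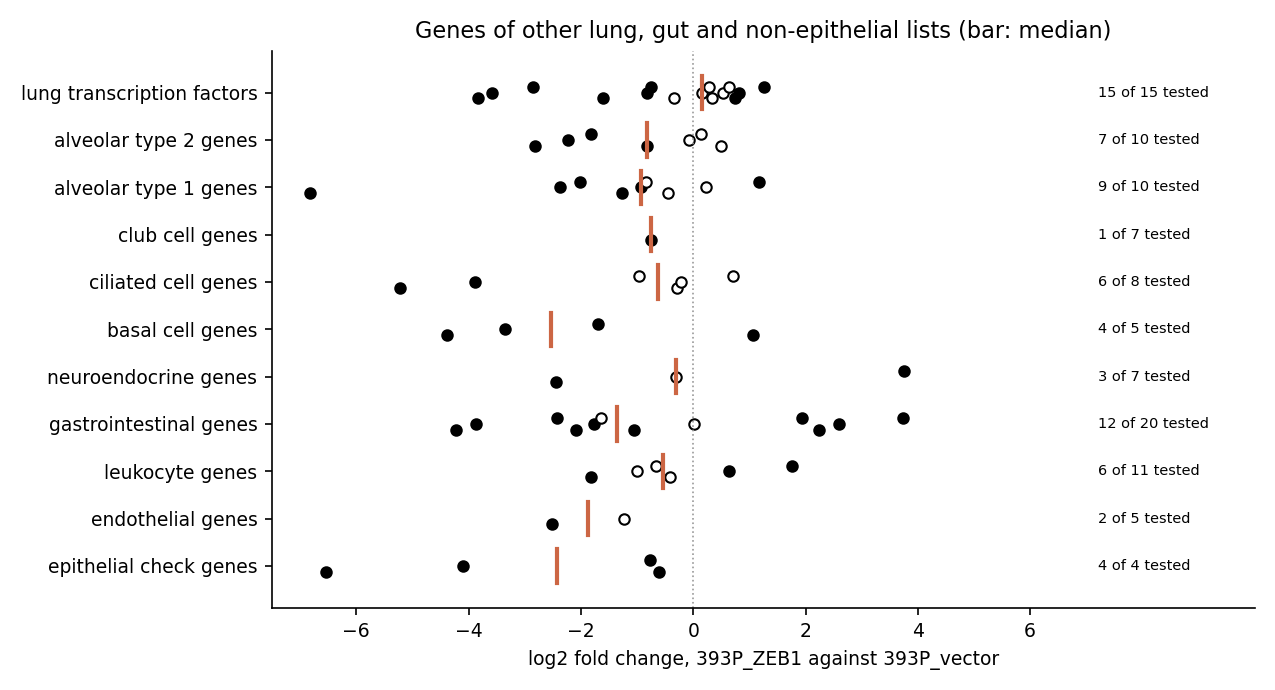
Log2 fold change (horizontal axis) of each tested gene in the 11 lists (rows), filled where the edgeR adjusted p is below 0.05, with the list median as an orange bar and the number tested at the right. Epithelial, basal and ciliated genes lie mostly left of 0, whereas the gastrointestinal list has called genes on both sides, from -4.23 for Gcnt3 to 3.74 for Cdh17.

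Among 15 further lung transcription factors, all tested, 3 rose and 6 fell, with a median log2 fold change of 0.15. Foxa3, the forkhead relative of Foxa1 and Foxa2, had 143, 128 and 197 counts in 393P_vector and 12, 9 and 12 in 393P_ZEB1, and fell from 2.36 ± 0.176 to 0.194 ± 0.0312 CPM (log2 fold change -3.59, SE 0.23, adjusted p = 1.66e-05). Its groups did not overlap, unlike those of Foxa1 and Foxa2. Grhl2, a factor that sustains epithelial junction genes, fell from 30.9 ± 6.33 to 2.15 ± 0.374 CPM (-3.84, adjusted p = 1.03e-05). Foxp1, a forkhead repressor active in lung development, rose from 131 ± 12.2 to 231 ± 19.6 CPM (0.81, adjusted p = 0.00112), and Etv4, a fibroblast growth factor response gene, was at 129 ± 21 and 163 ± 3.31 CPM with an adjusted p of 0.0841. Without 393P_vector replicate 3, where 26.2% of all tested genes were called higher and 26.8% lower, 6 rose and 6 fell, Foxp1 and Etv4 among those that rose (adjusted p = 1.57e-05 and 0.0308).

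Since HNF4A acts in gut epithelium, 20 gastrointestinal genes were examined. 12 were tested, of which 4 rose and 6 fell, beside 18.3% and 19.3% of all tested genes, with a median log2 fold change of -1.35. Without 393P_vector replicate 3, 4 rose and 7 fell, beside 26.2% and 26.8%. Cdh17, the liver-intestine cadherin, had 30.9, 28.6 and 39.4 CPM in 393P_vector and 476, 436 and 414 CPM in 393P_ZEB1, with groups that did not overlap. Its log2 fold change was 3.74 (SE 0.16, adjusted p = 2.36e-06). Cdx2, the homeobox factor of the intestine, had 41.7, 44.6 and 23.8 CPM in 393P_vector and 151, 133 and 136 CPM in 393P_ZEB1, also without overlap (1.93, SE 0.23, adjusted p = 0.000465). The other rises, named after their values were seen, were Hnf4g, the paralog of Hnf4a, at 22 counts over the 393P_vector samples and 115 over the 393P_ZEB1 samples (2.59, adjusted p = 0.00176), and Vil1, the villin of microvilli, at 29 and 118 counts (2.25, adjusted p = 0.00436).

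The list did not move as a whole. Gcnt3, a mucin-type glycosyltransferase, fell from 84.8 ± 4.82 to 4.51 ± 0.524 CPM (log2 fold change -4.23, adjusted p = 7.61e-07), and Ctse, the gastric cathepsin E, fell from 9.22 ± 3.60 to 0.634 ± 0.0311 CPM (-3.86, adjusted p = 5.62e-05). Krt20, Anxa10 and Vsig1, named after their values were seen, also fell, with log2 fold changes of -2.42, -1.76 and -2.09. Pdx1, the trefoil genes Tff1, Tff2 and Tff3, Muc5ac, Pgc and Gkn1 did not pass the filter, with 11 counts at most in any sample. The summed level of the list was 195 to 203 CPM in 393P_vector and 570 to 649 CPM in 393P_ZEB1. Gcnt3 was the largest part of that sum in 393P_vector and Cdh17 in 393P_ZEB1.

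Markers of other cells were checked. Of 7 neuroendocrine genes, 3 were tested: Insm1, a zinc finger factor, rose from 1.98 ± 0.514 to 26.9 ± 0.605 CPM (log2 fold change 3.75, adjusted p = 7.24e-06), Uchl1, a neuronal ubiquitin hydrolase, fell by 2.44 on the log2 scale (adjusted p = 8.01e-05), and Syp was not called. Of 11 leukocyte genes, 6 were tested, 2 rose and 1 fell, and their summed level was 154 to 170 CPM in 393P_vector and 276 to 282 CPM in 393P_ZEB1. Mrc1 and Cd14 made up most of that sum and rose by 0.64 and 1.77 (adjusted p = 0.00124 and 9.24e-06), whereas Csf1r fell by 1.82 on the log2 scale (adjusted p = 0.00149). The defining genes Ptprc, Csf1r, C1qa, Tyrobp and Adgre1 had at most 31, 64, 4, 3 and 9 counts in any sample. Of 5 endothelial genes, 2 were tested, Kdr fell by 2.51 on the log2 scale (adjusted p = 0.000309) and Pecam1 was not called, and their sum was 2.49 CPM at most. The samples were of a cultured line. Whether any such cells were present, or added to the levels of Hnf4a, Foxa1 and Foxa2, was not tested.

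The epithelial label of the line was checked with 4 genes, all of which fell. Cdh1, which encodes E-cadherin, went from 162 ± 61.1 to 9.51 ± 0.718 CPM (log2 fold change -4.09, adjusted p = 2.28e-05), and Epcam, an epithelial adhesion molecule, from 122 ± 51.8 to 1.31 ± 0.611 CPM (-6.53, adjusted p = 3.25e-05). The keratins Krt8 and Krt18 stayed abundant at 585 ± 8.86 and 1327 ± 68.6 CPM in 393P_ZEB1, a log2 fold change of -0.61 for Krt8 (adjusted p = 0.00359) and -0.77 for Krt18 (adjusted p = 0.00113). For the lung label the genes were mixed. Nkx2-1, the surfactant genes and Scgb1a1 were at or near 0 in both groups, whereas Foxa1, Foxa2, Abca3 and Gprc5a were well counted in both, and Aqp5, a water channel of type 1 cells, was at 7.46 ± 0.594 CPM in 393P_vector and 1.84 ± 0.615 CPM in 393P_ZEB1 (adjusted p = 0.000719).

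The genes next to the low members were read for comparison, since they share their chromosomal surroundings. Their distances are also between lower coordinates. Beside Nkx2-1, Pax9, a paired-box factor 164 kb away, rose from 10.8 ± 0.976 to 21.3 ± 0.855 CPM (log2 fold change 0.98, adjusted p = 0.000621), and Mbip on the other side was not called (adjusted p = 0.379). Beside Sftpb, Atoh8, a basic helix-loop-helix factor, rose by 2.00 and Usp39, a splicing factor 15.4 kb away, fell by 1.03 on the log2 scale (adjusted p = 0.000363 and 0.0114). Beside Sftpc, Bmp1, a procollagen protease, fell (log2 fold change -0.65, adjusted p = 0.0135), as did Reep4 (-1.18, adjusted p = 0.000340). Both neighbours of Sftpc thus had group means of 23.6 CPM or more, while Sftpc had 3 counts at most. Beside Scgb1a1, Ahnak was at 6917 ± 539 and 6319 ± 765 CPM and Asrgl1, 28.1 kb away, rose by 0.68 (adjusted p = 0.00414).

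Around the expressed forkhead genes, Mipol1 beside Foxa1 fell by 0.87 on the log2 scale (adjusted p = 0.0187). On the other side 4921506M07Rik, 23.5 kb away, was at 0.533 ± 0.0866 and 0.648 ± 0.235 CPM and was not called. Beside Foxa2, Thbd, which encodes thrombomodulin and lies 362 kb away, fell from 153 ± 17.4 to 4.66 ± 0.277 CPM (log2 fold change -5.03, adjusted p = 5.52e-07), and Xrn2, an exonuclease gene 1030 kb away on the other side, rose by 0.27 (adjusted p = 0.0434). The other neighbours were Mat1a and the distant Txndc16 of Sftpd, at log2 fold changes of -2.76 and 1.71, Srp72 and Spink2 of Hopx at 0.36 and -0.99, and Yeats4 and Cpsf6 of Lyz2 at -0.13 and -0.07. All but the pair beside Lyz2 passed the test. The median over tested genes was -0.13 on chromosome 12, -0.36 on chromosome 6, -0.26 on chromosome 14, -0.30 on chromosome 10, 0.07 on chromosome 5 and -0.03 on chromosome 19.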

How the data were processed

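RNA of 3 393P_vector and 3 393P_ZEB1 samples was sequenced from SOLiD total RNA libraries, and samples were grouped by the vector in their labels. Each sample came with the raw read count that the authors gave to 24214 RefSeq features, with the deposited RPKM, which scales that count by exon length and total reads, and with another deposited column with the number of exons holding more than 10 reads. The total that the deposited RPKM implied was 99.1% to 99.3% of the summed counts, and RPKM was not used further. The aligner, the counting program and the build are not given in the sources used here. The coordinates were taken as those of GRCm38, where 11697 of 20872 compared feature starts equalled the RefSeq start.

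Counts were tested in R 4.3.3 with edgeR 4.0.16, by a robust quasi-likelihood fit with TMM factors and filterByExpr at its default minimum count of 10, which left 13892 genes. The fit held the condition alone, and p-values were adjusted by Benjamini-Hochberg with a threshold of 0.05. The study states no test for these samples. CPM used TMM-normalized library sizes, an SE is the log2 fold change over the square root of F, and permutation tests used log2 of CPM plus 0.01. Levels between genes were compared per kb of exon. The fit was tested on simulated data. Alternatives were DESeq2 1.42.0, limma 3.58.1 with voom, other scalings and filters, a test against a fold change of 1.5, a threshold of 0.01, the replicate number as a block and leaving out each sample. The groups share the numbers 1 to 3, and deviations from group means correlated at -0.126 to 0.195 for equal and -0.120 to 0.157 for unequal numbers, so the numbers were not taken as pairs. Figures used Python 3.11.15 and matplotlib 3.10.9.

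The 10 genes and the lists were chosen with earlier results of these data known. Beside the 10 genes, Zeb1 and the nearest tested gene on either side of each, the text names in each list the 2 genes with the largest called change and the 2 with the highest level. All other list genes it names were added after their values were seen. Some single genes of the lists enter the counts and are not reported here by name.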

Additional observations from a re-analysis of the deposited data

How the results depend on the processing

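The call on Hnf4a held under all 15 alternatives, with log2 fold changes of 3.05 to 3.25 and adjusted p of 0.000127 at most. Foxa1 ranged from -0.46 to -0.04 and was called under none of them. Foxa2 ranged from 0.01 to 0.38 and was called under 2. The number of the 10 genes called higher was 1 as reported, 2 with limma voom and 2 without 393P_vector replicate 3, and leaving out each sample in turn gave 1 to 2. The number called lower was 0 under each alternative. Limma voom weights the samples, and the cause of its other call was not tested. With the replicate number as a block, log2 fold changes were 3.19 for Hnf4a (edgeR adjusted p = 3.90e-05), -0.28 for Foxa1 (adjusted p = 0.303) and 0.14 for Foxa2 (adjusted p = 0.587), and no call changed. Depth limits the 7 genes with 0 to 5 counts: differences between the groups could not be shown for them.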
